A study of Danio rerio with 9 samples.

Results

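The 6 lincRNAs (long intergenic noncoding RNAs) of the zebrafish heart described here were both abundant and higher in heart than in skeletal muscle. They were chosen from the 813 cardiac lincRNAs that the study lists with their locus, exons and annotation for embryonic heart, adult heart, or both, here called the catalogue. A lincRNA was taken when its mean over the 9 samples was above 50 FPKM and its mean in each heart tissue was more than 2 times its mean in adult muscle. FPKM is the number of sequenced fragments of a transcript, scaled to its length and to the size of the library. The rule gave 6 lincRNAs out of the 813, and the deposited values cover 103079 assembled transcripts in all. The 9 samples were 3 of embryonic heart (age 4 days), 3 of adult heart (age 6 months), and 3 of adult muscle, labelled as adult fish with no age in months. All were wild type, with no transgene, injury or drug treatment named in the labels, and the study's methods give the strain as WIK. The study describes them as biological samples, but how many fish went into each is not given in the sources used here. The p-values therefore measure the spread between these samples, which may be in part technical.

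As background, lincRNAs are transcribed from DNA between protein-coding genes, are often spliced and polyadenylated, and are not translated into long proteins. Some bring chromatin-modifying complexes to other genes, some act on the genes next to them, and for many no function is known. In the mouse, the lincRNAs Bvht and Fendrr take part in the specification and growth of the embryonic heart. Heart and skeletal muscle are both striated and share much of their contractile machinery, which makes adult muscle a close comparison tissue for the heart. No function of the 6 lincRNAs is annotated in the files, and none is assigned to them here.

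The catalogue annotates TCONS_00048108 and TCONS_00040395 as known lincRNAs of Ensembl and lists the other 4 as unannotated. TCONS_00048108 corresponds to ENSDART00000152390, lies at chr20:12386394-12390750 of the Zv9 assembly, and has 2 exons and a length of 1849 nt. TCONS_00040395 corresponds to ENSDART00000155270, lies at chr19:36916961-36918197, and has a single exon of 1236 nt, so that its locus and its transcript have nearly the same length. Among the unannotated lincRNAs, TCONS_00064425 lies at chr24:59941-71930 and joins 2 exons into 292 nt. It was the shortest of the 6 transcripts and had the longest locus, 11990 bp, most of which is intron. TCONS_00079130 lies at chr4:53795266-53799794 with 2 exons and 352 nt. TCONS_00000540 lies on Zv9_NA427, a sequence not placed on any chromosome, from 23950 to 26227, with 3 exons and 387 nt. TCONS_00022936 lies at chr14:7762484-7764082 with 2 exons and 422 nt. All 6 loci are intergenic in the catalogue, all 6 are listed for both heart tissues, and 0 of the 6 are on the catalogue's list of cardiac-specific lincRNAs. The study cloned TCONS_00048108 and TCONS_00022936 from heart cDNA and reports Sanger sequencing of their exon junctions. It names no other of the 6 in that experiment.

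The study's PCR primers are given for 4 of the 6 and are shown because they are the stretches by which these RNAs can be detected in another experiment. They are printed from 5′ to 3′, with the 5 bases at the 3′ end, from which the polymerase extends, in capitals. They are 19 to 22 nt long and have a GC content between 45.5% and 55.0%. The position of the primers within each transcript was not determined.
TCONS_00048108 forward: tttggtctcttctcatgTCTCC
TCONS_00048108 reverse: tagaggtgtcgtctgTGCTG
TCONS_00040395 forward: aaaccgtcacagcagagACCAC
TCONS_00040395 reverse: aaagtccacacagcaggAACAC
TCONS_00064425 forward: ctggaggcagaaggaAGATG
TCONS_00064425 reverse: tggtgaagccacaaCACAC
TCONS_00022936 forward: tcacggcccaaatcaTGCAG
TCONS_00022936 reverse: aaccccaaggcgtccTTTAG

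In the data set as a whole, the single highest transcript took between 29.9% and 55.9% of the summed FPKM of a sample, and the values do not carry read numbers. The tissue labels could not be checked with protein-coding markers, since the values carry assembly identifiers without gene names. A check was made with TCONS_00028686 and TCONS_00000891, which the study picked as heart lincRNAs on these samples. By PCR in separate adult tissues, the study found TCONS_00028686 mainly and TCONS_00000891 only in heart. They had 24.3 to 31.0 and 1.93 to 2.84 FPKM in the adult heart samples and at most 0.0328 and 0.0341 FPKM in the muscle samples. Neither marks embryonic heart, where they reached 0.222 and 0.121 FPKM. Adult heart replicate 0 was the highest adult heart sample for all 6 abundant heart lincRNAs, by a median of 0.53 on the log2 scale over the mean of the other adult heart samples. That sample was also the highest for 66.8% of the transcripts with a mean above 50 FPKM (median log2 difference, 0.23) and for 37.2% of all transcripts tested. The part of this sample in the results was not tested beyond the values without it that are given below.

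TCONS_00048108 and TCONS_00040395, the annotated lincRNAs, were the most abundant of the 6. TCONS_00048108 had 306, 192 and 166 FPKM in embryonic heart, 453, 346 and 287 FPKM in adult heart, and 43.5, 34.2 and 47.5 FPKM in muscle (replicates 0, 1 and 2 in this and the following lists). All 6 heart samples were above all 3 muscle samples, and the 2 heart tissues overlapped through embryonic replicate 0, which exceeded the lowest adult heart sample. The means were 221 ± 74.8 FPKM in embryonic heart, 362 ± 83.9 FPKM in adult heart, and 41.8 ± 6.83 FPKM in muscle (SD, n = 3 each). TCONS_00048108 thus had the highest mean of the whole catalogue in embryonic heart, the third highest in adult heart, and rank 18 in muscle.

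TCONS_00040395 had 154, 253 and 142 FPKM in embryonic heart, 739, 500 and 511 FPKM in adult heart, and 40.0, 54.7 and 58.4 FPKM in muscle. The lowest adult heart sample was 1.97 times the highest embryonic one, and the lowest embryonic one was 2.43 times the highest muscle sample. The means were 183 ± 61.2, 583 ± 135 and 51.0 ± 9.73 FPKM in embryonic heart, adult heart and muscle (SD, n = 3 each). This single-exon lincRNA had the highest mean of the catalogue in adult heart, rank 3 in embryonic heart, and rank 12 in muscle. The next entry of the catalogue on chromosome 19, TCONS_00042939, ends 4933 bp from it and had only 0.264, 1.05 and 0.730 FPKM in embryonic heart, adult heart and muscle.

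**Figure D1:**
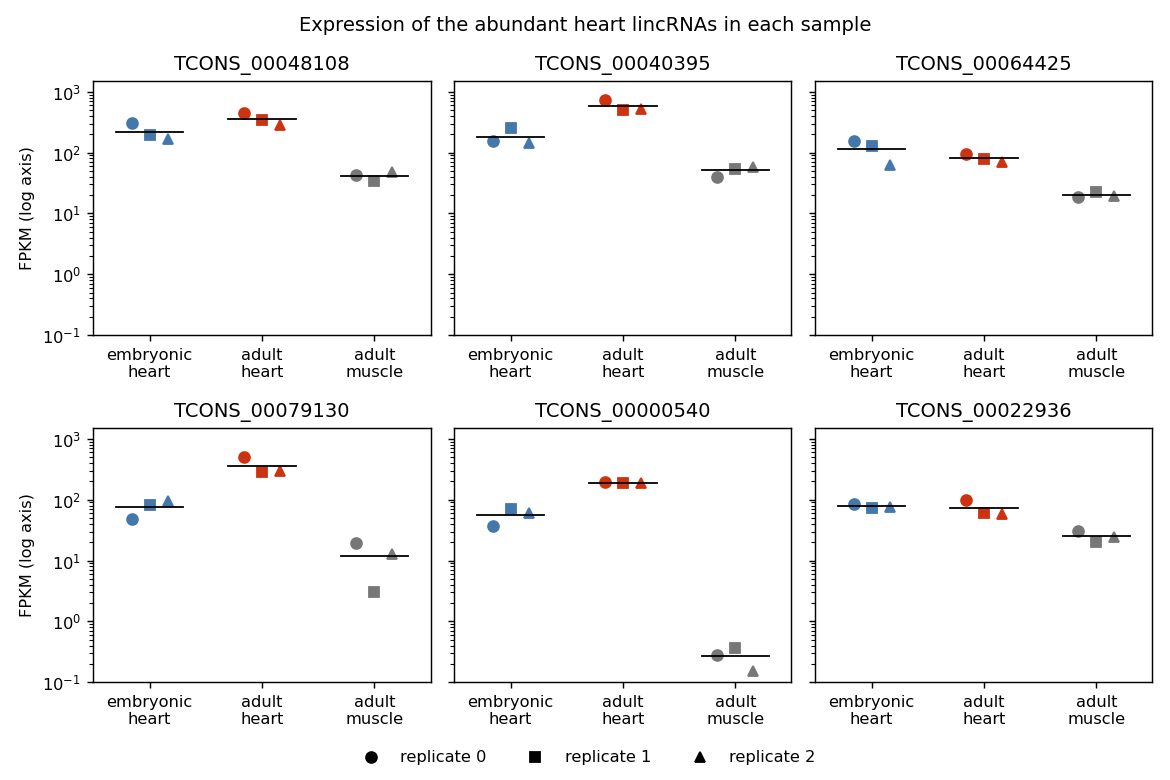
FPKM (log axis) of each of the 6 abundant heart lincRNAs in the 3 samples of embryonic heart, adult heart and adult muscle. Points are samples and horizontal lines are means. All heart samples lie above all muscle samples in each panel, the adult heart samples lie above the embryonic ones without overlap for TCONS_00040395, TCONS_00079130 and TCONS_00000540, and the muscle values of TCONS_00000540 lie between 0.154 and 0.371 FPKM.

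Of the unannotated lincRNAs, TCONS_00079130 was the most abundant. It had 47.3, 83.3 and 95.8 FPKM in embryonic heart, 504, 286 and 292 FPKM in adult heart, and 19.6, 3.05 and 12.7 FPKM in muscle. The 3 tissue types did not overlap, but the muscle samples differed among themselves by 6.43 times. The means were 75.4 ± 25.2, 361 ± 124 and 11.8 ± 8.32 FPKM (SD, n = 3 each, in the same order). TCONS_00079130 is also on the study's list of lincRNAs that differ between embryonic and adult heart, a list chosen on these samples and so no independent evidence of its direction. That list needed a larger fold difference than the calls made below, so it says little about lincRNAs with smaller ratios.

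TCONS_00000540 was the lincRNA with the lowest muscle level by far. It had 36.8, 71.2 and 60.4 FPKM in embryonic heart, 194, 188 and 191 FPKM in adult heart, and 0.277, 0.371 and 0.154 FPKM in muscle. The adult heart samples lay within a few percent of each other, and the muscle samples were all above the 0.1 FPKM that the study took as expressed. The means were 56.1 ± 17.6, 191 ± 3.07 and 0.267 ± 0.109 FPKM (SD, n = 3 each). It ranked 14 in embryonic heart and 5 in adult heart within the catalogue, and 490 in muscle.

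The muscle values of TCONS_00000540 rested on few fragments. The value of 1 fragment was estimated from the 58 catalogue lincRNAs within 50 nt of the length of TCONS_00000540. The median of their 5 lowest values above 0.05 FPKM was 0.123, 0.109 and 0.157 FPKM in muscle replicates 0, 1 and 2. By that estimate the muscle values stood for about 2.25, 3.42 and 0.978 fragments, 7 in all, for which the exact Poisson 95% interval is 2.81 to 14.4. The ratio of means, 716 for adult heart over muscle, then had an interval of 347 to 1781, and the ratio of 210 for embryonic heart over muscle one of 102 to 523. These intervals cover counting error only and depend on the estimated step. They describe how precisely the muscle level is known. They are no test of a difference from muscle, since the rule chose the lincRNAs by these ratios.

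TCONS_00064425 had 157, 130.1 and 63.1 FPKM in embryonic heart, 95.1, 77.3 and 70.4 FPKM in adult heart, and 18.4, 22.7 and 19.4 FPKM in muscle. The embryonic samples spanned the whole adult range, and both lay above muscle. The means were 117 ± 48.2, 80.9 ± 12.7 and 20.2 ± 2.23 FPKM (SD, n = 3 each). The study's PCR in adult tissues found TCONS_00064425 in brain, kidney and spleen as well as in heart, so this lincRNA is not particular to heart. The only other catalogue entry within 100 kb on chromosome 24, TCONS_00063144 at 25803 bp from it, had 0.471, 0.218 and 0.953 FPKM in embryonic heart, adult heart and muscle, with its highest mean in muscle.

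TCONS_00022936, the least abundant of the 6, had 85.1, 73.1 and 77.1 FPKM in embryonic heart, 99.7, 60.1 and 57.1 FPKM in adult heart, and 30.9, 20.4 and 24.5 FPKM in muscle. The adult samples lay on both sides of the embryonic ones, and the lowest heart sample was 1.85 times the highest muscle sample. The means were 78.4 ± 6.09, 72.3 ± 23.8 and 25.2 ± 5.28 FPKM (SD, n = 3 each). For TCONS_00048108, TCONS_00079130, TCONS_00000540 and TCONS_00022936, no other catalogue lincRNA was found within 100 kb.

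The heart-to-muscle ratios chose these lincRNAs and are therefore given without a test. The ratio of mean FPKM of adult heart to muscle was 8.67 for TCONS_00048108, 11.4 for TCONS_00040395, 4.01 for TCONS_00064425, 30.6 for TCONS_00079130, 716 for TCONS_00000540, and 2.86 for TCONS_00022936. The ratio of embryonic heart to muscle was 5.30, 3.58, 5.77, 6.40, 210 and 3.11 in the same order. The ratio was larger in adult than in embryonic heart for 4 of the 6, and larger in embryonic heart for TCONS_00064425 and TCONS_00022936. All 6 heart samples exceeded all 3 muscle samples in 6 of 6, which the rule nearly fixes. Over all 69118 transcripts tested, samples without overlap were found in 20.8% for higher values in adult heart than in muscle and in 17.4% for higher values in embryonic heart than in muscle. In bulk tissue, fewer cells of a type and less RNA per cell cannot be told apart, and this holds for all comparisons here.

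At the border of the rule, TCONS_00022936 was the nearest inside both thresholds, with an overall mean of 58.7 FPKM and a smaller ratio of 2.86. The nearest catalogue lincRNAs below the abundance threshold with both ratios above 2 were TCONS_00007801, with an overall mean of 26.1 FPKM and ratios of 5.14 (embryonic) and 15.5 (adult), and TCONS_00022820, with 24.8 FPKM and ratios of 3.82 and 2.38. The nearest abundant lincRNAs below the ratio threshold were TCONS_00028652, with 133.5 FPKM and ratios of 1.27 and 0.883, and TCONS_00023933, with 73.9 FPKM and ratios of 1.45 and 0.837. Among lincRNAs with both ratios above 2, none had an overall mean between 26.1 and 58.7 FPKM, and among those above 50 FPKM, none had a smaller ratio between 0.883 and 2.86.

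**Figure D2:**
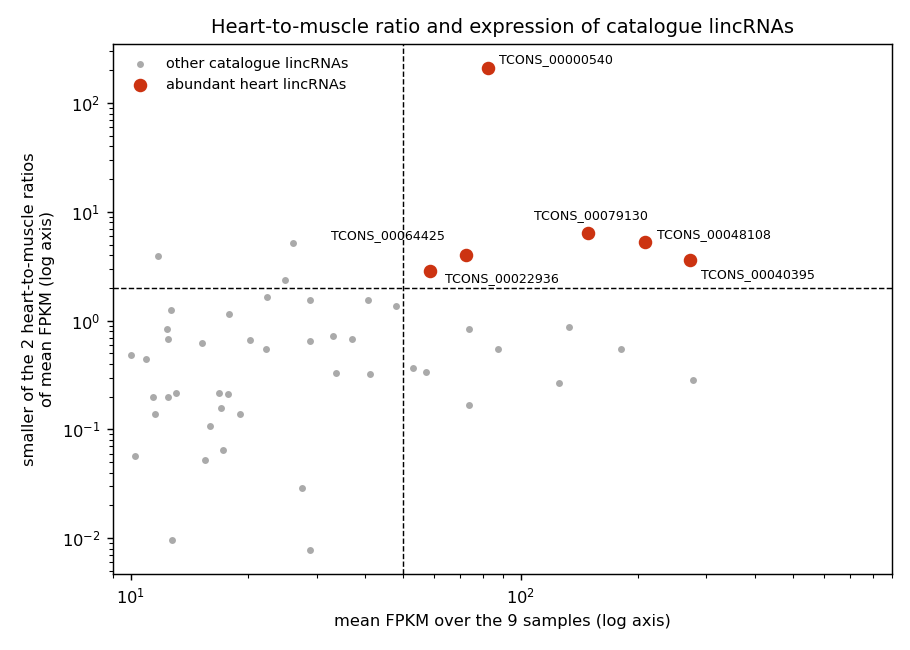
Smaller of the ratios of mean FPKM of embryonic heart to muscle and of adult heart to muscle (log axis) against the mean FPKM over the 9 samples (log axis), for the 52 catalogue lincRNAs with a mean above 10 FPKM. Dashed lines are the thresholds of the rule, 50 FPKM and a ratio of 2, and red points are the 6 lincRNAs beyond both, of which TCONS_00000540 lies highest with a ratio of 210.

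The difference between adult and embryonic heart was not itself a term of the rule that chose the lincRNAs. The mean of each heart was, however, so the rule removed abundant lincRNAs that were low in either heart. Adult heart also enters the mean over the 9 samples. TCONS_00000540 had means of 56.1 FPKM in embryonic heart, 191 FPKM in adult heart and 0.267 FPKM in muscle. With its embryonic level in both hearts it would have missed the 50 FPKM threshold, so its stage call partly follows from the rule. Within these limits, the comparison addresses the dependence of the 6 on stage. The 3 lincRNAs TCONS_00040395, TCONS_00079130 and TCONS_00000540 were higher in adult heart, and for the other 3 no difference was called. A call needed both a more than 2-fold ratio of the mean FPKM and an adjusted p below 0.05, which came from a two-sided limma test of log2(FPKM + 0.1) with Benjamini-Hochberg adjustment over all 69118 transcripts tested. By this rule adult heart was the higher one for 12.2% of all transcripts tested, and embryonic heart for 7.23%. The heart samples did not overlap for the same 3 lincRNAs, and adult samples lay wholly above embryonic ones for 24.2% of all transcripts tested. Among the 1417 transcripts with an overall mean above 50 FPKM, which are the like of these lincRNAs in level, 26.6% were called higher in adult and 11.8% in embryonic heart, and the adult samples lay wholly above the embryonic ones for 42.5%. Among the 810 catalogue lincRNAs tested, the shares called were 21.4% and 8.27%. All 6 lincRNAs passed the filter on low values, through any of the 3 tissue types.

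TCONS_00040395 was 3.19 times as high in adult as in embryonic heart by ratio of means, with a log2 fold change of 1.70 (standard error 0.267, 95% interval 1.09 to 2.31, adjusted p = 0.00281 by limma, Benjamini-Hochberg). TCONS_00000540 was 3.40 times as high, with a log2 fold change of 1.82 (standard error 0.291, 95% interval 1.16 to 2.48, adjusted p = 0.00306 from the same limma fit). For both, every adult sample exceeded every embryonic sample, and both were called with any single sample left out. Without adult heart replicate 0, the log2 fold changes were 1.52 (adjusted p = 0.0107, limma) and 1.81 (adjusted p = 0.0128, limma).

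TCONS_00079130 had the largest log2 fold change of the 6 and the largest standard error. Its ratio was 4.78 and its log2 fold change 2.27 (standard error 0.620, 95% interval 0.85 to 3.68, adjusted p = 0.0319 by limma, Benjamini-Hochberg). The lowest adult sample was 2.99 times the highest embryonic sample. The call was lost without adult heart replicate 0 (log2 fold change 1.999, adjusted p = 0.0974), replicate 1 (2.41, 0.0721) or replicate 2 (2.39, 0.0675), and without embryonic heart replicate 0 (1.96, 0.0963) or replicate 1 (2.37, 0.0631), all from limma. The direction was the same in each of these fits, and the call held without embryonic heart replicate 2 or any muscle sample. With only the 6 heart samples in the fit, the adjusted p was 0.00725, and without muscle replicate 1 it was 0.00473 (limma). The muscle samples, which share the estimate of the spread, differed for this lincRNA more than they did for 94.3% of transcripts of like level.

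TCONS_00048108 was 1.63 times as high in adult heart, with a log2 fold change of 0.73 (standard error 0.265, 95% interval 0.13 to 1.34), and did not pass the test (adjusted p = 0.0842 by limma, Benjamini-Hochberg). This rested on embryonic heart replicate 0, its highest embryonic sample. Without it the log2 fold change was 0.99 (adjusted p = 0.0257, limma) and the lincRNA was called, with a ratio of means close to the 2-fold threshold. TCONS_00048108 was called in no other alternative fit. The interval leaves room for a rise of up to 1.34 on the log2 scale.

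TCONS_00064425 had an embryonic mean 1.44 times the adult mean. Its log2 fold change, adult minus embryonic heart, was -0.44 (standard error 0.311, 95% interval -1.15 to 0.27, adjusted p = 0.366 by limma, Benjamini-Hochberg). Without embryonic heart replicate 2, the lowest sample of its group at 63.1 FPKM, it was -0.83 (adjusted p = 0.0178, limma). The ratio of means was still below 2 there, so TCONS_00064425 was not called. TCONS_00022936 had a ratio of adult to embryonic heart of 0.922 and a log2 fold change of -0.16 (standard error 0.241, 95% interval -0.71 to 0.39, adjusted p = 0.682, limma). A difference between the hearts of 1 log2 unit in either direction lies outside this last interval.

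Set beside other lincRNAs of the catalogue, the median log2 fold change of adult over embryonic heart was 1.22 for the 6 abundant heart lincRNAs, with 3 called higher and 0 called lower in adult heart. It was 0.47 for the other 9 catalogue lincRNAs with an overall mean above 50 FPKM, of which 2 were called higher and 1 lower. The median was 0.71 for all 810 catalogue lincRNAs tested, 0.49 for the 1417 transcripts above 50 FPKM, and 0.18 for all transcripts tested. The other 9 ranged from -2.73 for TCONS_00009015 to 2.68 for TCONS_00022567, a wider range than that of the 6. The contrasts in range and in calls are in part set by the rule, which needs both hearts well above muscle. So is the median of the 6, since adult heart enters the mean by which they were chosen. TCONS_00009015, the lincRNA called lower, had an embryonic heart-to-muscle ratio of 3.63 and fell outside the rule through its adult ratio of 0.549. With so few lincRNAs these medians are a description.

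**Figure D3:**
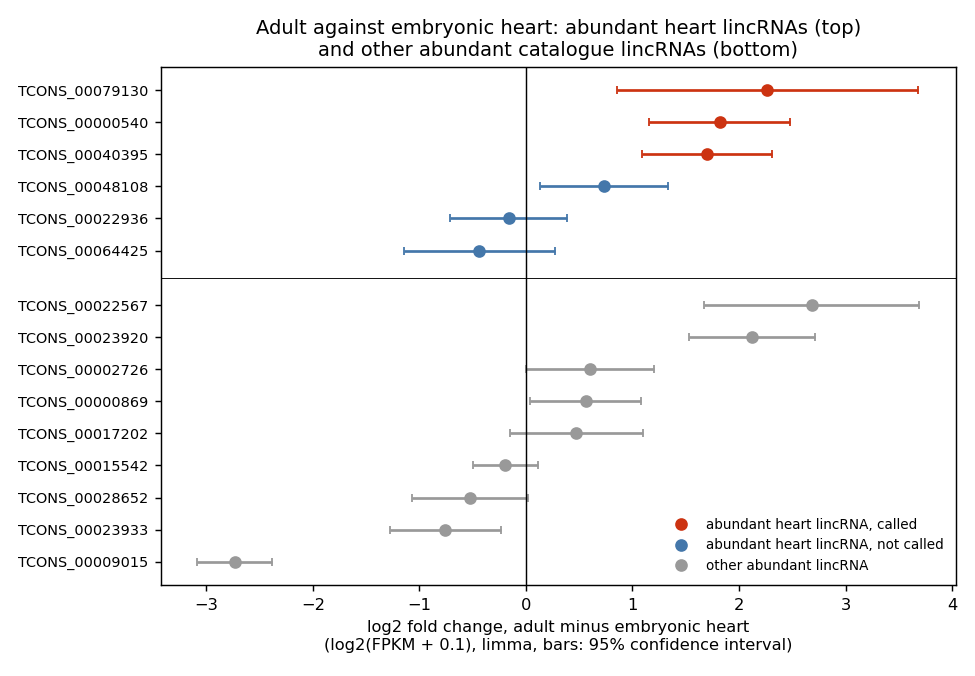
Log2 fold change of adult over embryonic heart, on the log2(FPKM + 0.1) scale, for the 6 abundant heart lincRNAs (top) and the other 9 catalogue lincRNAs above 50 FPKM (bottom). Bars are 95% confidence intervals from limma. Red marks the 3 called lincRNAs, from 1.70 for TCONS_00040395 to 2.27 for TCONS_00079130, blue the 3 that were not called, and grey the others, whatever their call.

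The proportions of the 6 to each other lay apart between the hearts for part of the pairs, which is given as a description. TCONS_00040395 was the highest of the 6 in all 3 adult heart samples, while TCONS_00048108 was the highest in embryonic replicates 0 and 2. In embryonic heart TCONS_00048108 was 0.759 to 1.99 times as high as TCONS_00040395 in the same sample, and in adult heart 0.561 to 0.693 times, without overlap between the stages. Such ratios within a sample do not depend on the factor by which the sample was scaled. How often they lie apart between the hearts for other transcripts was not determined. A ratio of a called lincRNA to one not called largely restates the stage calls.

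The ratio of TCONS_00079130 to TCONS_00022936 was 0.556 to 1.24 in embryonic heart and 4.77 to 5.10 in adult heart, where the 3 samples nearly coincided, and 0.150 to 0.636 in muscle. TCONS_00079130 reached 0.154 to 0.578 times the level of TCONS_00048108 in embryonic heart and 0.827 to 1.11 times in adult heart. TCONS_00000540 was the lowest of the 6 in every embryonic heart and muscle sample and had the rank of 4 among them by mean in adult heart.

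Among the 3 lincRNAs called higher in adult heart, the proportions overlapped between the stages. TCONS_00000540 was 0.240 to 0.426 times as high as TCONS_00040395 in embryonic heart and 0.263 to 0.376 times in adult heart. TCONS_00079130 was 1.17 to 1.59 times as high as TCONS_00000540 in embryonic heart and 1.52 to 2.60 times in adult heart. The same was found for TCONS_00064425 and TCONS_00022936, which were not called: their ratio was 0.818 to 1.84 in embryonic heart and 0.953 to 1.29 in adult heart. It was not found for TCONS_00048108, which was also not called. TCONS_00048108 was 1.48 to 2.62 times as high as TCONS_00064425 in embryonic heart and 4.08 to 4.76 times in adult heart. Its ratio to TCONS_00022936 was 2.15 to 3.60 in embryonic heart and 4.54 to 5.77 in adult heart. With 3 samples a stage, an overlap does not show that proportions are equal.

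Together the 6 lincRNAs held 23.3% ± 3.04 of the summed FPKM of the 813 catalogue lincRNAs in embryonic heart (20.1 to 26.1%), 37.4% ± 5.03 in adult heart (33.2 to 43.0%), and 4.28% ± 0.355 in muscle (3.88 to 4.55%; SD, n = 3 each). The summed level of the 6 was 731 ± 110 FPKM in embryonic heart, 1650.2 ± 377 FPKM in adult heart and 150.3 ± 13.9 FPKM in muscle. The summed level of all other catalogue lincRNAs was 2405 ± 132, 2731 ± 220.0 and 3360.2 ± 157 FPKM (SD, n = 3 each), highest in muscle. The difference from muscle follows from the rule. Between the hearts the shares did not overlap, and the highest share, 43.0%, was that of adult heart replicate 0. This difference in part restates the stage calls, and it was not set beside other groups of lincRNAs.

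**Figure D4:**
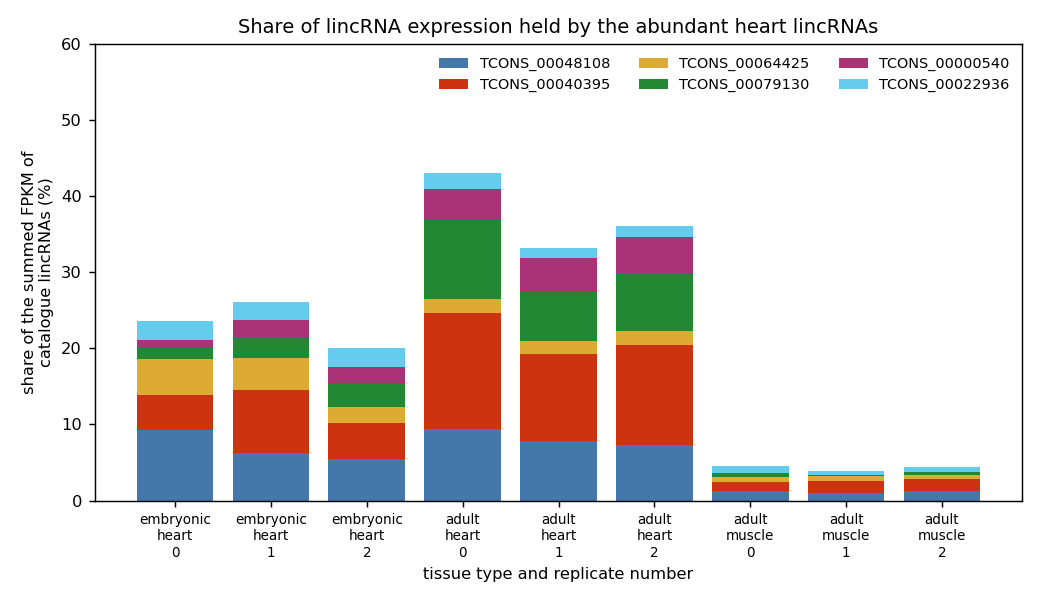
Share of the summed FPKM of the 813 catalogue lincRNAs (%) held by each of the 6 abundant heart lincRNAs, stacked, in each of the 9 samples. The stacks reach 20.1 to 26.1% in embryonic heart, 33.2 to 43.0% in adult heart and 3.88 to 4.55% in muscle, and TCONS_00040395 forms the largest piece in all adult heart samples.

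The precision of the values differed between lincRNAs and stages. In embryonic heart the SD of the log2 values was between 0.45 and 0.69 for 5 of the 6, larger than for 74.9% to 87.3% of transcripts with a mean within 2-fold. TCONS_00022936 was the exception with an SD of 0.11. In adult heart the SD was 0.023 for TCONS_00000540, smaller than for nearly all transcripts of like level (0.41% were smaller), and between 0.22 and 0.46 for the other 5. In muscle the largest SD was the 1.38 of TCONS_00079130, where 0.231 was the median of transcripts of like level.

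The 6 lincRNAs included short transcripts. Of them 4, which are also the 4 unannotated ones, were at most 422 nt long, a limit set after the lengths were seen, while 15.4% of the catalogue (125 lincRNAs) were this short and the catalogue median was 899 nt. Among the other 9 abundant catalogue lincRNAs, 3 were this short and 6 were unannotated. The number of exons was 2 for 4 of the 6, the same as the median of the catalogue. For short transcripts FPKM depends on the effective length that Cufflinks assigns, and the part of this in the levels was not tested.

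**Figure D5:**
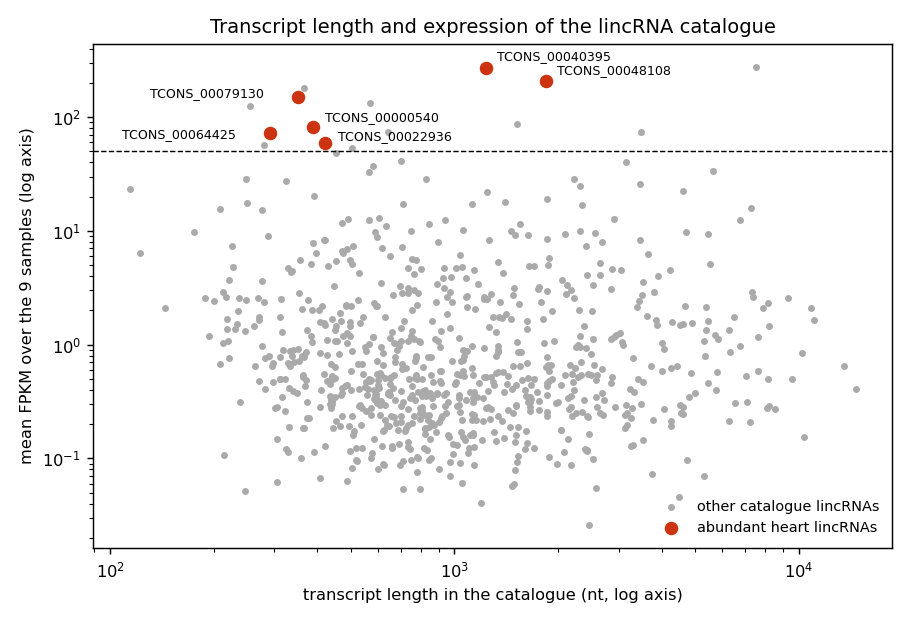
Mean FPKM over the 9 samples (log axis) against transcript length in the catalogue (nt, log axis) for the catalogue lincRNAs, with the 6 abundant heart lincRNAs in red and a dashed line at 50 FPKM. The unannotated lincRNAs TCONS_00064425, TCONS_00079130, TCONS_00000540 and TCONS_00022936 lie between 292 and 422 nt, and the known ones at 1236 and 1849 nt.

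Other catalogue lincRNAs with a like pattern over the 9 samples were sought among 297 candidates with an overall mean above 1 FPKM, by the root mean square difference of log2(FPKM + 0.1) values centred on each lincRNA's mean, where a smaller value is more alike. For TCONS_00040395 the nearest were TCONS_00007801 (0.402) and TCONS_00073774 (0.538), and for TCONS_00048108 they were TCONS_00007801 (0.481) and TCONS_00045244 (0.572). TCONS_00007801, an unannotated lincRNA of 3451 nt on chromosome 10 with 18.5, 56.0 and 3.60 FPKM in embryonic heart, adult heart and muscle, thus had a profile like theirs at a lower level. It was also the second nearest to TCONS_00079130 (0.794), after TCONS_00007831 (0.747).

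The nearest to TCONS_00022936 was TCONS_00022820 (0.336), followed by TCONS_00084590 (0.379). TCONS_00022820 was also the second nearest to TCONS_00064425 (0.421), after TCONS_00000586 (0.405), and is 1 of the lincRNAs just below the abundance threshold. The nearest to TCONS_00000540 were TCONS_00005687 (1.49) and TCONS_00028536 (1.61). These distances were larger than those of the other lincRNAs to their nearest, but so was the median over all candidates, 4.13. TCONS_00005687 had 2.36, 14.1 and 0.0418 FPKM in embryonic heart, adult heart and muscle, and that muscle mean lies below the 0.1 FPKM added before the log. The median over all candidates was between 1.34 and 4.13 for the 6. Within the group the closest pair was TCONS_00064425 and TCONS_00022936 (0.508), followed by TCONS_00048108 and TCONS_00040395 (0.552). These distances come from 9 samples of 3 tissue types, so they mostly restate the differences between tissue types.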

How the data were processed

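RNA-seq was done on 3 samples each of embryonic heart, adult heart and adult muscle. Per the study's methods and the submitters' processing notes, the authors aligned reads to Zv9 with TopHat2 2.0.12, assembled transcripts with Cufflinks 2.2.1 and deposited FPKM values from Cuffnorm, whose scaling option is not given in the sources used here. FPKM are not counts, and read numbers are not part of them, so depth was only estimated, for transcripts of like length, from the lowest values. Loci, exons, lengths, classes and primers came from the study's supplementary tables.

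Transcripts with a mean above 0.1 FPKM in at least 1 tissue type (69118) were fitted with limma 3.58.1 in R 4.3.3 on log2(FPKM + 0.1), with a trend and the 9 samples in one fit. This scale understates changes of low transcripts. The code of the fit was also run on simulated data with few changed transcripts, which does not show how well the fit suits these values. Named lincRNAs are the 6 chosen, the 2 nearest each threshold, the 2 most alike in pattern and those within 100 kb. TCONS_00009015 and TCONS_00022567 are named as the ends of a range, after their values were seen. The 6 lincRNAs and the lists were chosen with earlier results of these data known. Alternatives were pseudocounts of 1 and 0.01, other filters, no trend, median-ratio and quantile scaling, heart samples only, a replicate block and leaving out each sample. Python 3.11.15 with numpy 2.4.6, pandas 2.3.3, scipy 1.17.1 and matplotlib 3.10.9 did the rest.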

Additional observations from a re-analysis of the deposited data

How the results depend on the processing

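No direction of the adult-to-embryonic difference was reversed for any of the 6 lincRNAs under the 18 alternatives, and TCONS_00040395 and TCONS_00000540 kept their calls, with adjusted p from 0.00166 to 0.0278 and from 0.000857 to 0.0178 (limma). TCONS_00079130 lost its call without a filter on low values (log2 fold change 2.27, adjusted p = 0.0872, limma) and after quantile normalization (1.72, 0.0781). Without the filter, more transcripts entered both the fit and the adjustment. The cause of either loss was not tested. The adjusted p of TCONS_00079130 ranged from 0.00473 to 0.0974 over the alternatives, that of TCONS_00048108 from 0.0257 to 0.976, that of TCONS_00064425 from 0.0178 to 0.741, and that of TCONS_00022936 from 0.0677 to 1.0. With single samples left out, the log2 fold change lay between 1.96 and 2.47 for TCONS_00079130, 0.55 and 0.99 for TCONS_00048108, and -0.83 and -0.17 for TCONS_00064425. The number of the 6 called was then 2 or 3.

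Quantile normalization lowered the log2 fold change of all 6 lincRNAs. It moved the median log2 fold change of all transcripts tested from 0.18 to -0.01 and that of TCONS_00048108 from 0.73 to 0.02, and gave 6791 transcripts higher and 6184 lower in adult heart, against 8423 and 4996. With the replicate number as a block, 3 of the 6 and 11659 transcripts were called. Nothing in the labels pairs the samples. Deviations from the tissue means correlated at 0.017 on average between samples of one number and at -0.009 between the rest, and not every sample correlated best with its own number. The summed FPKM of all transcripts was 4.49e+06, 1.45e+07 and 1.92e+07 in embryonic replicates 0, 1 and 2. The single highest transcript held 55.9%, 35.5% and 29.9% of it. As a share of that sum, the 6 lincRNAs held 0.0175%, 0.00555% and 0.00315% in embryonic replicates 0, 1 and 2 (mean 0.00873%, SD 0.00768). Their share was 0.0457% to 0.0653% in the adult hearts (mean 0.0539%) and 0.00350% to 0.00431% in muscle (mean 0.00390%). On that scale the embryonic mean lies above embryonic replicates 1 and 2, and replicate 2 lies below every muscle sample. Depth limits the muscle level of TCONS_00000540, at an estimated 7 fragments over the 3 samples.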
